A study of Schizosaccharomyces pombe with 30 samples.

Results

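The regions described are the subtelomeres of chromosome I of Schizosaccharomyces pombe outside tlh1, a helicase gene at the left end of the chromosome that carries a nucleator of heterochromatin. They are the filtered 300bp windows of chromosome I that start after position 5662 and end at or before 100000 (left arm) or that start after 5479133 (right arm). This rule, which uses position alone, takes 202 of the 1500 filtered windows, 115 on the left arm and 87 on the right arm. H3K9me2 ChIP-seq was compared between 4 mutants and wild-type: Δfkh2 and Δprw1 (gene deletions, 3 libraries each), clr6-1 (a hypomorphic allele of an essential gene, 2 libraries), clr3-D232N (a catalytically dead allele, 3 libraries) and wild-type (2 libraries). All 5 genotypes carry MAT ΔREIII, a mating type locus with fluorescent reporter genes and without the binding sites of its REIII element, and all were grown in YES at 32°C. The deleted loci fkh2 and prw1 were masked by the authors, so these counts could not check the genotype labels.

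H3K9me2 marks heterochromatin, which is assembled at nucleators and then spreads into neighbouring chromatin, where the methyltransferase Clr4 both writes and binds the mark. Fkh2 is a forkhead transcription factor, Prw1 a structural subunit of the Clr6 complexes, Clr6 a class I histone deacetylase, and Clr3 the class II deacetylase of the SHREC complex. Subtelomeres hold repeated sequence, few essential genes and, on the right arm of chromosome I, no annotated nucleator.

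The libraries held between 4408669 and 12641248 fragments in 5kb bins, and the wild-type libraries held a median of 2045.0 and 2060.5 fragments per window of these arms before scaling. The lowest raw count of any of these windows in any library was 20. Δfkh2 replicate B placed 50.5% of its fragments in the 1500 filtered windows, against 30.8% and 36.9% in replicates A and C. Δprw1 replicate B placed 64.5% there, against 33.1% and 37.4%. The wild-type libraries B and C held 70.2% and 57.3%. Because these libraries stand apart from their replicates, counts that move without them are given beside the results.

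Most of this chromatin is not unique in the genome. Of the 115 left-arm windows, 103 had a near-identical copy elsewhere (at least 95% identity over at least 50% of the window), and 58 of them had a copy that was identical over all 300 bases. On the right arm 64 of 87 windows had such a copy, and 38 had an identical one. The copies lay on either arm of chromosome I and at both ends of chromosome II, except for 1 left-arm window that also had a copy outside these regions. Of the left-arm windows, 12 had a copy on the same arm. The aligner places a read that matches several places at only 1 of them, so counts of such windows are shared between places. The 12 left-arm windows without a copy lay from 12601 to 22500, and the 23 on the right arm lay from 5534401 to 5559000. The median GC content was 34.3% on the left arm and 33.7% on the right arm, against 34.7% over all filtered windows of the 3 chromosomes.

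The windows on which the results turn are shown first, as RefSeq sequence of the forward strand of ASM294v3. The left-arm window with the highest wild-type mean (chrI:8101-8400, over the non-coding RNA SPNCRNA.2006) and its right-arm counterpart (chrI:5575201-5575500, within SPAC750.07C) are each identical to a copy on the right arm of chromosome II (chrII:4524148-4524447 and chrII:4520028-4520327), and the right-arm one also to chrI:15919-16218 on the left arm. The same sequence thus lay 3.63kb from the right end of the assembly and, as its copy, at 15919 on the left arm.
left arm window 8101: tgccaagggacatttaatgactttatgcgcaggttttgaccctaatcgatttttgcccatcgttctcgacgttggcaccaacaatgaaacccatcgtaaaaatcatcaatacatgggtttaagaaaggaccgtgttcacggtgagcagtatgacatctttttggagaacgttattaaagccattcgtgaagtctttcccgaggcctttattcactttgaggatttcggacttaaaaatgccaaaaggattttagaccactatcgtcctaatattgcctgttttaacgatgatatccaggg
right arm window 5575201: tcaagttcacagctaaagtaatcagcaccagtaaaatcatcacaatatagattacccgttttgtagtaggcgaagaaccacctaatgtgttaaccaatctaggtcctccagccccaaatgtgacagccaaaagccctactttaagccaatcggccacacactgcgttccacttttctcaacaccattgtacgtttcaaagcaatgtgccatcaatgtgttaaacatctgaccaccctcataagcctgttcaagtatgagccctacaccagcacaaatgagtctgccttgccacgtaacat

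The window chrI:5570101-5570400 fell furthest of all right-arm windows in each of the 4 mutants. It lies between SPAC750.06C and SPAC750.07C and overlaps no annotated gene by 50%. In capitals is the only base at which it differs from its left-arm copy at chrI:20990-21289 (T21C, counted from 1 at the window start), so the left-arm window that fell furthest in Δprw1 and clr3-D232N, chrI:21001-21300, is nearly the same sequence read on the other strand. The left-arm window that fell furthest in Δfkh2 and clr6-1, chrI:28201-28500, likewise differs by 1 base (T39C, in capitals) from its copies at chrII:4912-5211 and chrII:4507713-4508012. The window chrI:5534401-5534700, over the non-coding RNA SPNCRNA.1702, has no copy and was the innermost right-arm window that was reduced in each mutant.
right arm window 5570101: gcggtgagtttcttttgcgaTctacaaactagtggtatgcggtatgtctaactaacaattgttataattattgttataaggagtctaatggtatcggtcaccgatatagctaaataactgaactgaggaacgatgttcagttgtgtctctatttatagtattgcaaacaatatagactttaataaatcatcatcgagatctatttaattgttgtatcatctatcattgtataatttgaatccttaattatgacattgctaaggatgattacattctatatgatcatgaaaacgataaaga
left arm window 28201: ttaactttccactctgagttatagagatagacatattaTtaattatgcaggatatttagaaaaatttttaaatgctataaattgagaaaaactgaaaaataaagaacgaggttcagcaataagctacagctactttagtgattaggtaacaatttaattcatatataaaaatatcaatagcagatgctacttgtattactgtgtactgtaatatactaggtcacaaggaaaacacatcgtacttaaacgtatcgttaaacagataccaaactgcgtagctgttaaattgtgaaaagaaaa
right arm window 5534401: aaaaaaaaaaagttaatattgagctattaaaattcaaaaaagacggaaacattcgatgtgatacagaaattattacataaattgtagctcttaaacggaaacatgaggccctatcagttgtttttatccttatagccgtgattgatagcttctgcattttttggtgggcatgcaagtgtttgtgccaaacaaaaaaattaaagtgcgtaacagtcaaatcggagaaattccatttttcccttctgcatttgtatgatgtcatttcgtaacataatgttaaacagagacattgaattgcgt

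In wild-type, H3K9me2 was highest near the chromosome ends and declined inward on both arms. The mean normalized count (fragments divided by the library's size factor) ranged between 266 and 12560 per window on the left arm and between 276 and 10410 on the right arm. By 10kb class of distance from the end, the wild-type mean of the library medians was 8816 ± 3626 from the tlh1 border to 10kb on the left arm, then 5444 ± 2182, 2980.0 ± 1074, 1105 ± 399 and 373 ± 116 out to 50kb (SD, n = 2). On the right arm the classes from 0 to 50kb held 6599 ± 2372, 1739 ± 612, 675 ± 214, 518 ± 193 and 404 ± 125 (SD, n = 2). The 2 wild-type libraries differed in level, replicate B being the higher, but both declined with distance.

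**Figure D1:**
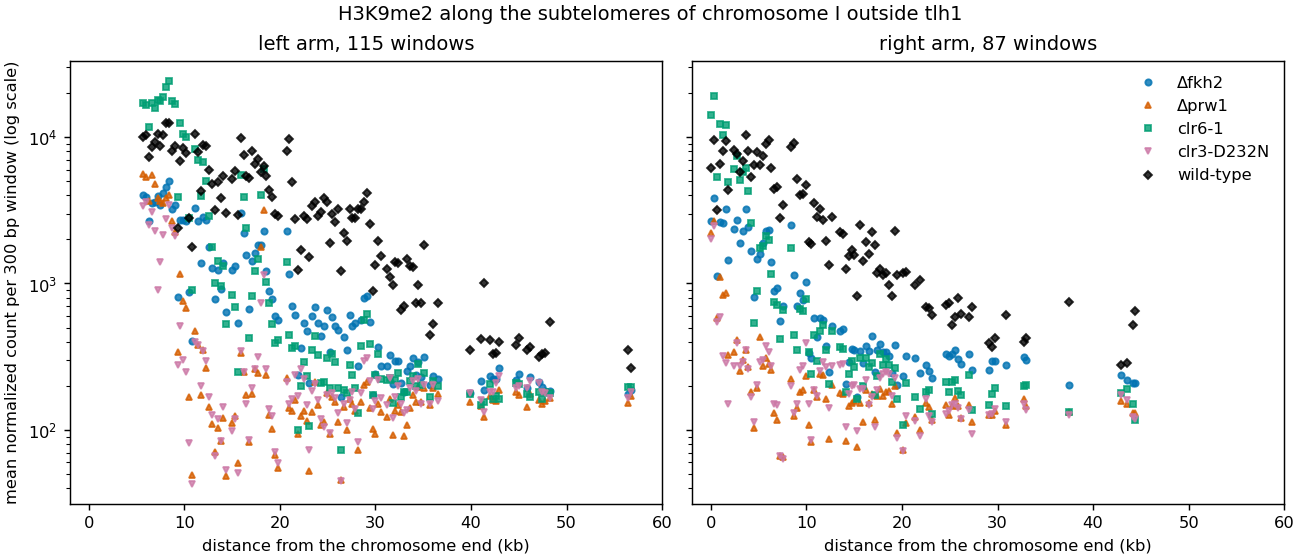
Mean normalized count of each 300bp window (vertical axis, log scale) against its distance from the chromosome end in kb (horizontal axis) on the left and right arm. Each point is the mean over the libraries of a genotype. Wild-type declined inward on both arms, clr6-1 stood above wild-type in the windows next to tlh1, and Δprw1 and clr3-D232N lay lowest over most of the region.

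Windows with reduced H3K9me2 were called on both arms in each mutant, most widely in Δprw1 and clr3-D232N. On the left arm, 71 of 115 windows were reduced in Δfkh2 cells, 99 in Δprw1 cells, 70 in clr6-1 and 97 in clr3-D232N, and on the right arm 62, 83, 64 and 83 of 87 (edgeR's quasi-likelihood test against wild-type, Benjamini-Hochberg adjusted p below 0.005 and a log2 fold change below -1). Over both arms these were 133, 182, 134 and 180 of 202 windows, or 65.8%, 90.1%, 66.3% and 89.1%. Over all 1500 windows the same test called 36.0%, 48.3%, 36.4% and 64.9% reduced. The median log2 fold changes of the left arm were -2.01, -3.84, -2.06 and -3.60, and those of the right arm -1.88, -3.52, -2.34 and -3.26, in the order Δfkh2, Δprw1, clr6-1 and clr3-D232N, against -1.38, -1.53, 0.02 and -2.46 over all windows. In all 4 mutants 126 of the 202 windows were reduced, and 13 in none, which was not counted over all 1500 windows.

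No window of either arm was called increased in any mutant, by edgeR or by DESeq2's Wald test, and none was higher at an unadjusted p below 0.05, which 0.133%, 6.27%, 9.93% and 2.4% of all windows were in the Δfkh2, Δprw1, clr6-1 and clr3-D232N strains. Over all windows, 0.133% were increased in Δfkh2, 0.0667% in Δprw1 cells, 0.4% in clr6-1 and 0.867% in clr3-D232N. Windows passed the authors' filter on their mean count over all libraries, so a window could enter because wild-type was high, and the counts above are a description. The unfiltered 5kb bins are given further on.

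The count for Δfkh2 depended most on the libraries. Without wild-type replicate B it was 42 on the left arm and 28 on the right arm, without Δfkh2 replicate B 93 and 76, and with only Δfkh2 and wild-type in the fit 6 and 2. Without clr6-1 replicate A or B, 39 or 42 right-arm windows were reduced in clr6-1. For Δprw1, leaving out its replicate B gave 109 and 85.

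The summed H3K9me2 of an arm set the mutants apart in size. On the left arm the log2 level was 16.36, 17.65 and 16.47 in Δfkh2, 15.33, 16.86 and 15.73 in Δprw1 cells, 18.36 and 18.42 in clr6-1 cells, and 15.54, 15.59 and 15.70 in clr3-D232N, against 19.10 and 18.29 in wild-type. Every Δfkh2, Δprw1 and clr3-D232N library lay below both wild-type libraries, while clr6-1 lay between them. On the right arm it was 15.56, 16.87 and 15.72 in Δfkh2, 13.98, 15.00 and 14.09 in Δprw1 cells, 17.12 and 17.20 in clr6-1 cells, and 14.50, 14.31 and 14.31 in clr3-D232N, against 18.42 and 17.61 in wild-type. Here all 11 mutant libraries, clr6-1 included, lay below both wild-type libraries.

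The difference from wild-type on the log2 scale was -1.87 on the left and -1.96 on the right arm in Δfkh2, -2.73 and -3.66 in Δprw1 cells, -0.31 and -0.86 in clr6-1 cells, and -3.09 and -3.64 in clr3-D232N. A sum is carried by the windows of highest count, which lie nearest the end. The median window in place of the sum gave -3.12 and -2.65 in clr6-1, and without wild-type replicate B the sum on the left arm in clr6-1 was 0.09. The left arm exceeded the right arm by 0.75 to 0.80 in Δfkh2, 1.35 to 1.86 in Δprw1, 1.22 to 1.24 in clr6-1 and 1.04 to 1.39 in clr3-D232N, against 0.68 in each wild-type library. No test was made of these sums.

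**Figure D2:**
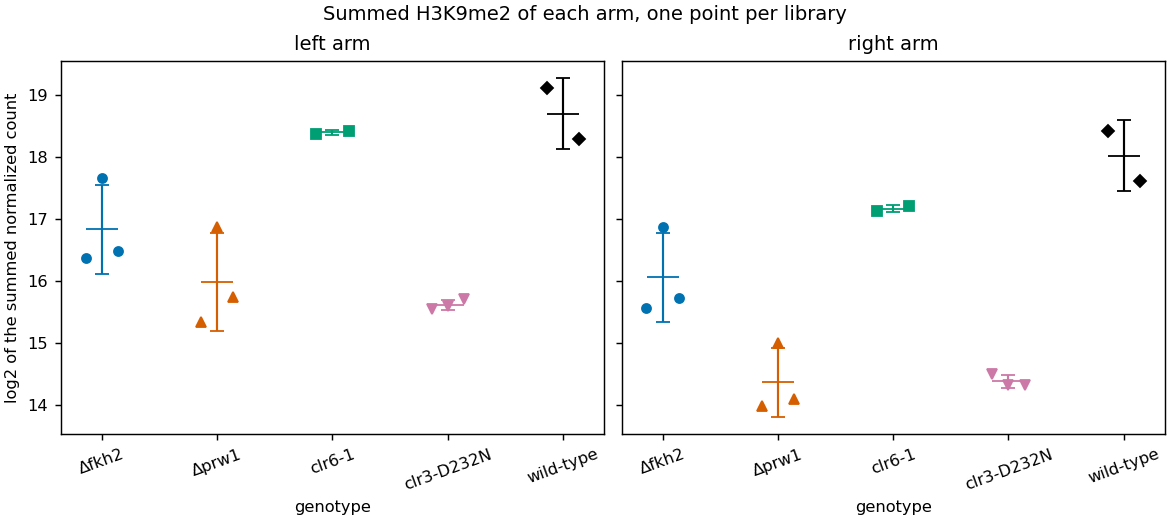
Log2 of the summed normalized count of the 115 left-arm and 87 right-arm windows (vertical axis) by genotype (horizontal axis). Each point is a library and the bar is the mean with its SD. clr3-D232N lay near 15.6 and 14.4 on the left and right arm, and clr6-1 overlapped wild-type on the left arm.

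Next to tlh1 on the left arm, loss was called in Δprw1 and clr3-D232N only, though Δfkh2 lay below wild-type as well. Every Δfkh2 library was below both wild-type libraries in all 15 windows there (976 of all 1500 windows). The same held for clr3-D232N in 15 (1129 of all) and for Δprw1 in 9 (886 of all). In the 15 windows between tlh1 and 10kb, none was reduced in Δfkh2 or clr6-1, 3 were in Δprw1 and 8 in clr3-D232N (at an unadjusted p below 0.05, 7 in Δfkh2, 0 in clr6-1, 9 in Δprw1 and 15 in clr3-D232N were lower, against 64.3%, 41.1%, 58.1% and 74.8% of all windows), with median log2 fold changes of -1.34, 0.81, -1.56 and -2.03 in the same order. The library medians there were 16610 and 17490 normalized counts in clr6-1, against 6252 and 11380 in wild-type, and in 14 of the 15 windows both clr6-1 libraries lay above both wild-type libraries, as they did in 30.7% of all 1500 windows. None of these 15 passed the test for an increase, and each has a near-identical copy on the right arm of chromosome II. From 10 to 20kb, 19, 30, 15 and 32 of 32 windows were reduced in the Δfkh2, Δprw1, clr6-1 and clr3-D232N strains, with medians of -2.0, -5.17, -1.73 and -5.13.

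From 20 to 40kb on the left arm, nearly all windows were reduced in all 4 mutants. Of the 31 left-arm windows from 20 to 30kb, 30 were reduced in Δfkh2 and all 31 in the other mutants, and of the 21 from 30 to 40kb 20, 21, 20 and 20 were. The library medians from 20 to 30kb averaged 536 ± 257 in Δfkh2 (SD, n = 3), 137 ± 26.7 in Δprw1 (SD, n = 3), 277 ± 10.5 in clr6-1 (SD, n = 2) and 165 ± 19.2 in clr3-D232N (SD, n = 3), against 2980.0 ± 1074 in wild-type (SD, n = 2). In the 14 windows from 40 to 50kb, where wild-type itself was low, 2, 13, 4 and 5 were reduced. Of the 2 windows beyond 50kb, Δprw1 and clr3-D232N each had 1 reduced.

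On the right arm, loss was called to within 0.633kb of the end of the assembly in Δprw1 and clr3-D232N, with 29 of 31 windows reduced in each within 10kb, against 16 in Δfkh2 and 14 in clr6-1. The library medians of that class averaged 1724 ± 927 in Δfkh2 (SD, n = 3), 266 ± 97.7 in Δprw1 (SD, n = 3), 1974 ± 78.5 in clr6-1 (SD, n = 2) and 283 ± 30.1 in clr3-D232N (SD, n = 3), against 6599 ± 2372 in wild-type (SD, n = 2). In clr6-1 the log2 fold changes within these 10kb spanned -4.36 to 1.21, and 4 windows had both clr6-1 libraries above wild-type. All 30 windows from 10 to 20kb were reduced in every mutant. From 20 to 30kb 12, 18, 16 and 18 of 18 were reduced, with medians of -1.27, -2.32, -1.89 and -2.43. In the 8 windows beyond 30kb, 4, 6, 4 and 6 were reduced.

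**Figure D3:**
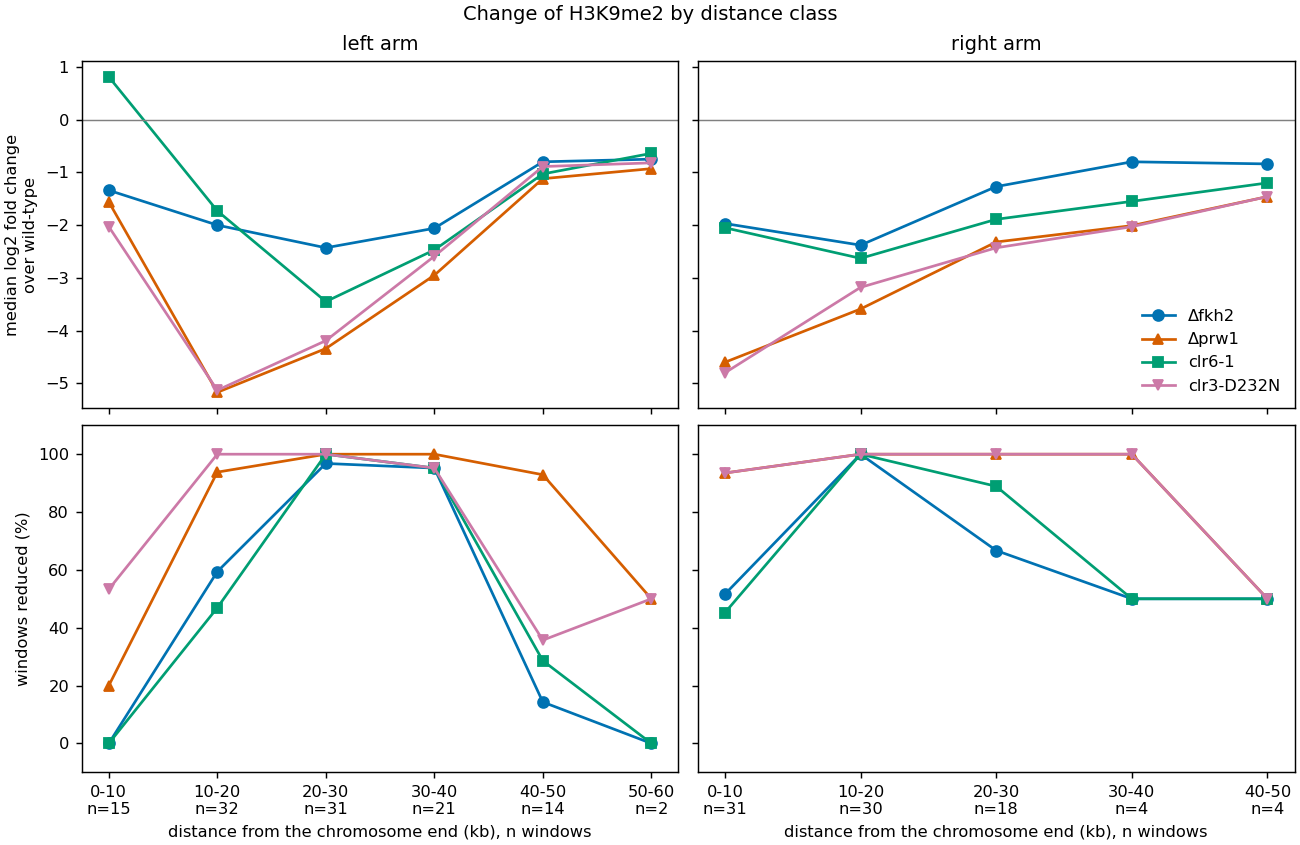
Median log2 fold change over wild-type (upper panels) and percent of windows reduced (lower panels) by 10kb class of distance from the chromosome end, with the number of windows n under each class, for the 4 mutants. On the left arm the median of clr6-1 was 0.81 next to tlh1 and -3.45 from 20 to 30kb, while Δprw1 and clr3-D232N were lowest from 10 to 20kb, at -5.17 and -5.13.

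A stretch of the left arm without copies by the definition above, which does not exclude shorter matches, showed a gradient in clr6-1 within 3.3kb. Between 12601 and 15900 there are 10 such windows, of which 9 were reduced in Δfkh2, 10 in Δprw1 cells, 6 in clr6-1 and 10 in clr3-D232N. At its outer edge (chrI:12601-12900, in SPAC212.08C, a GPI anchored protein) the normalized counts were 3048 and 2769 in clr6-1, against 7673 and 4284 in wild-type, a log2 fold change of -1.04 ± 0.67 (SE, edgeR adjusted p = 0.204). At its inner edge (chrI:15601-15900) they were 288 and 211 in clr6-1, against 3497 and 2335 in wild-type, a log2 fold change of -3.54 ± 0.59 (SE, edgeR adjusted p = 3.66e-08). The clr6-1 and wild-type libraries did not overlap at either edge, and the fold change grew inward. Across the same 10 windows the fold change stayed between -2.45 and -1.76 in Δfkh2, between -5.94 and -5.38 in Δprw1 and between -5.84 and -5.15 in clr3-D232N. The median over the stretch was 98.7, 113 and 108 normalized counts in clr3-D232N and 90.8, 109 and 105 in Δprw1, against 6180 and 3547 in wild-type. Counts this low leave little room for a gradient to show in Δprw1 or clr3-D232N.

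The windows fell into a few patterns of loss, whose distances from the end overlapped. The windows reduced in all 4 mutants, 67 on the left arm and 59 on the right arm, spanned 13.8 to 48.3kb and 4.53 to 44.4kb, with median wild-type means of 2769 and 1597. The next most frequent pattern was a reduction in Δprw1 and clr3-D232N alone, at 17 left-arm and 16 right-arm windows. They spanned 9.3 to 56.4kb and 0.633 to 33.0kb, with median wild-type means of 6837 and 6169 and single windows between 351 and 10470. A reduction in Δprw1 alone was called at 8 windows, all on the left arm from 39.9 to 47.7kb, where the wild-type means lay between 329 and 380. A reduction in clr3-D232N alone was called at 7 windows, also all on the left arm, from 7.2 to 18.3kb, with wild-type means of 5744 to 12560. No window was reduced in Δfkh2 alone or in clr6-1 alone. A pattern lists the calls of each mutant and does not test the mutants against each other. Patterns were counted in these 202 windows only, so they are not shown to be particular to them.

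Both clr6-1 libraries exceeded both wild-type libraries in 18 of the 202 windows, against 461 of all 1500 (30.7%). There were 14 on the left arm, from 5.7 to 9.6kb, and 4 on the right arm, within 0.933kb of the end. Their log2 fold changes spanned 0.67 to 1.14 and 0.73 to 1.21, and none passed the test (lowest edgeR adjusted p = 0.233 and 0.187).

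Windows over non-coding RNA genes alone, protein-coding genes and no gene all included reduced windows in every mutant. On the left arm 17, 21, 17 and 25 of 27 such windows were reduced in the Δfkh2, Δprw1, clr6-1 and clr3-D232N strains, with median log2 fold changes of -2.01, -4.38, -2.06 and -4.32. Of the 41 left-arm windows over no gene 26, 35, 24 and 36 were reduced, with -2.25, -4.64, -2.52 and -4.65, and of the 47 over protein-coding genes 28, 43, 29 and 36, with -1.73, -2.91, -1.89 and -2.69. The windows over protein-coding genes lay at a median of 31.8kb, against 15.3kb for those over non-coding RNA genes and 19.5kb for those over no gene. For the right arm, 19, 20, 16 and 20 of the 20 windows over non-coding RNA genes alone were reduced, against 22, 30, 25 and 30 of the 34 over protein-coding genes. The kinds of window were not tested against each other.

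Counting windows without a copy on both arms, 26 of 35 were reduced in Δfkh2, 35 in Δprw1 cells, 27 in clr6-1 and 35 in clr3-D232N, with median log2 fold changes of -1.62, -2.52, -2.01 and -2.56. Among windows with a copy these were 107, 147, 107 and 145 of 167, with medians of -2.06, -3.75, -2.36 and -3.60. Of the windows without a copy, 9 were thus not called in Δfkh2 and 8 not in clr6-1. The 2 kinds of window lie at different distances from the end, so their fold changes were not set against each other.

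The named windows show the levels behind these counts. At chrI:5570101-5570400 the normalized counts were 628, 2225 and 553 in Δfkh2, 133, 128 and 112 in Δprw1 cells, 490 and 398 in clr6-1 cells, and 144, 114 and 134 in clr3-D232N, against 11230 and 7046 in wild-type. No mutant library reached the lower wild-type library. The log2 fold changes there were -3.01 ± 0.61, -6.20 ± 0.70, -4.36 ± 0.76 and -6.13 ± 0.69 (SE, edgeR adjusted p between 1.16e-17 and 7.55e-06). At its left-arm counterpart, chrI:21001-21300, Δprw1 held 145, 154 and 124 and clr3-D232N 187, 126 and 138, against 11960 and 7421 in wild-type, with log2 fold changes of -6.10 ± 0.70 and -6.01 ± 0.69 (SE).

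At chrI:28201-28500, Δfkh2 held 128.0, 498 and 188 and clr6-1 held 133.0 and 127, against 3866 and 2568 in wild-type. The log2 fold changes were -3.57 ± 0.50 in Δfkh2 and -4.63 ± 0.62 in clr6-1 (SE, edgeR adjusted p = 1.53e-10 and 9.77e-12). Each mutant library was below both wild-type libraries, and Δfkh2 replicate B was the highest of them.

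The windows highest in wild-type differed from these in clr6-1. At chrI:8101-8400, 8.1kb from the left end, the counts were 3155, 7427 and 3176 in Δfkh2, 1832, 6938 and 2787 in Δprw1 cells, 21230 and 22890 in clr6-1 cells, and 2583, 2737 and 3013 in clr3-D232N, against 16370 and 8744 in wild-type. Only clr3-D232N was called reduced there (log2 fold change -2.18 ± 0.71, SE, edgeR adjusted p = 0.00352), while clr6-1 had both libraries above wild-type and did not pass the test (0.81 ± 0.79, SE, adjusted p = 0.449). At chrI:5575201-5575500, in SPAC750.07C, the counts were 2190, 5158 and 2362 in Δfkh2 and 251, 547 and 253 in Δprw1 cells. They were 5719 and 6592 in clr6-1 cells and 430, 347 and 285 in clr3-D232N, against 13730 and 7089 in wild-type. Only Δprw1 and clr3-D232N were called reduced, at -4.90 ± 0.72 and -4.88 ± 0.72 on the log2 scale (SE). Δfkh2 (-1.69 ± 0.65, SE, edgeR adjusted p = 0.0183) and clr6-1 (-0.76 ± 0.73, SE, edgeR adjusted p = 0.44) were not called. Each of their libraries lay below both wild-type libraries.

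The innermost windows called lay at or next to the limit of the filtered windows, except in Δfkh2 and clr6-1 on the left arm. The unfiltered bins given further on were reduced beyond the innermost windows called. The innermost left-arm window reduced in Δfkh2 and clr6-1 was chrI:48301-48600, over SPNCRNA.2020, with log2 fold changes of -1.57 ± 0.33 and -1.63 ± 0.38 (SE). In Δprw1 and clr3-D232N it was chrI:56401-56700 in SPAC977.12, an L-asparaginase, with -1.21 ± 0.33 and -1.09 ± 0.32 (SE). Both calls were lost without wild-type replicate B, at log2 fold changes of -0.93 and -0.82, and the Δprw1 call also without Δprw1 replicate C (-1.08) and the clr3-D232N call without clr3-D232N replicate B or C (-1.08 and -0.96). At the first of these windows, both calls were lost without wild-type replicate B (-1.15 and -1.21), and that of clr6-1 also without either of its libraries (-1.58 and -1.67). On the right arm it was chrI:5534401-5534700 in all 4 mutants, which is the innermost filtered window of that arm. There the counts were 152, 298 and 176 in Δfkh2, 123, 149 and 121 in Δprw1 cells, 106 and 127 in clr6-1 cells, and 110.1, 117 and 127 in clr3-D232N, against 806 and 483 in wild-type. The log2 fold changes were -1.62 ± 0.33, -2.31 ± 0.33, -2.47 ± 0.39 and -2.44 ± 0.33 (SE), and that of Δfkh2 lost its call without wild-type replicate B (-1.21). With only the genotypes compared in the fit, the calls of Δfkh2 at 48301 (-1.57) and 5534401 (-1.62) and of clr3-D232N at 56401 (-1.09) were lost, and with total count scaling those of Δfkh2 (-0.73 and -0.81), Δprw1 at 56401 (-0.52) and clr3-D232N at 56401 (0.01) were.

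The 5kb bins, which no filter on enrichment touched, followed the domain further inward. Of 38 bins inside the bounds, 12 were reduced in Δfkh2, 24 in Δprw1 cells, 20 in clr6-1 and 23 in clr3-D232N, against 2.34%, 4.17%, 3.65% and 3.89% of all 2520 bins. Without wild-type replicate B the counts were 2 in Δfkh2 and 11 in clr6-1, and without wild-type replicate C or Δfkh2 replicate B the count in Δfkh2 was 23 or 21. Without either clr6-1 library it was 10 in clr6-1. With the adjusted p alone and no fold threshold, 32, 38, 34 and 38 bins were lower, against 7.34%, 9.25%, 7.82% and 8.81% of all bins.

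In wild-type the bins lay at 52.0 times the median bin of the genome at 10kb from the left end, 31.4 times at 20kb, 4.61 times at 35kb, 2.12 times at 50kb and 1.04 times at 95kb. The bin at 50kb holds no filtered window and was reduced in each mutant, at 1.05, 0.944, 0.911 and 0.932 times the median bin in the Δfkh2, Δprw1, clr6-1 and clr3-D232N strains, with log2 fold changes of -1.0, -1.15, -1.21 and -1.16. At 95kb the log2 fold changes were between -0.43 and -0.37. The farthest bin reduced on the left arm began 50.0kb from the end in Δfkh2, 70.0kb in Δprw1 and clr6-1, and 75.0kb in clr3-D232N, and on the right arm it lay at 49.1kb in Δfkh2 and 59.1kb in the others.

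At the right end, the last 5kb bin held 17.8, 5.92, 63.4 and 4.62 times the median bin in the Δfkh2, Δprw1, clr6-1 and clr3-D232N strains, against 52.3 times in wild-type. The end of the assembly cuts this bin short, from 5575001 to 5579133. Its ratios to the median bin are therefore low for its width, in each genotype alike. It was reduced in Δprw1 and clr3-D232N (log2 fold changes of -3.14 and -3.49) and not called in Δfkh2 (-1.54) or clr6-1 (0.28). The adjoining bin, 4.13kb from the end, held 12.3, 1.68, 11.2 and 1.71 times the median bin, against 55.9 times in wild-type, and was likewise called only in Δprw1 and clr3-D232N (-5.05 and -5.02), not in Δfkh2 (-2.17) or clr6-1 (-2.32).

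**Figure D4:**
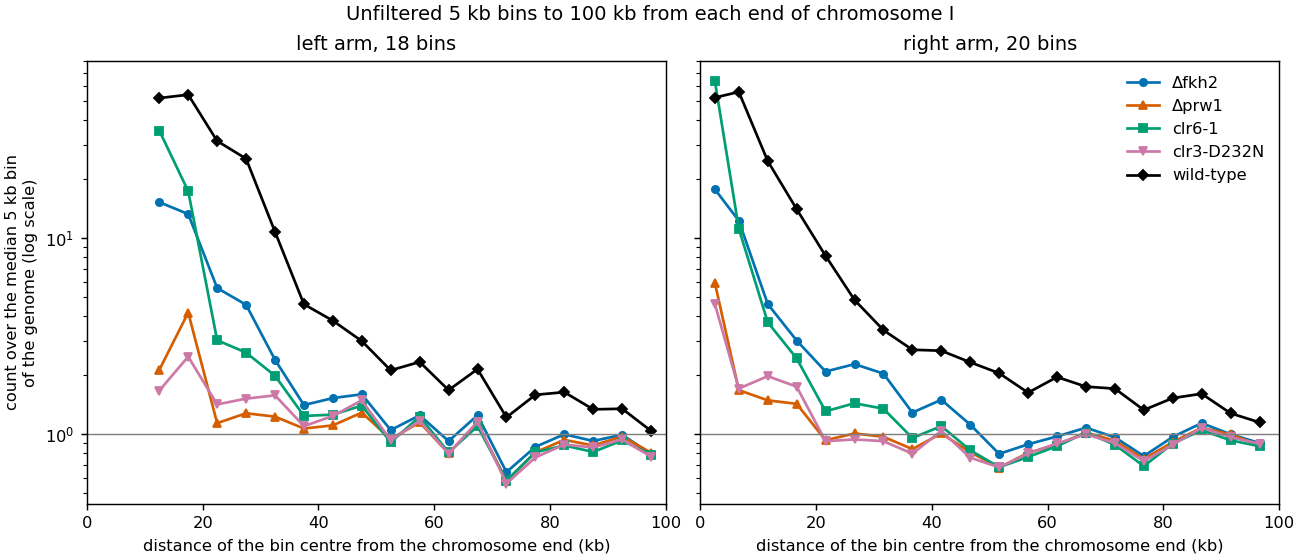
Fragment count of each 5kb bin divided by the library's median bin (vertical axis, log scale, mean over the libraries of a genotype) against the distance of the bin centre from the chromosome end in kb. The grey line marks the median bin. Wild-type remained above the mutants to beyond 60kb on both arms. The left-arm bins begin 10kb from the end, so the windows next to tlh1 are not shown. Among the bins shown, clr6-1 exceeded wild-type only in the last right-arm bin, at 63.4 against 52.3 times the median bin. The end of the assembly cuts that bin short.

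Loss of Clr3 catalysis was compared with each Clr6-related mutant directly. In clr3-D232N, 104 of the 202 windows were lower than in Δfkh2 and 75 lower than in clr6-1, against 25.4% and 41.2% of all windows. None was higher than in either, also at an unadjusted p below 0.05 and by DESeq2, against 4.13% and 5.67% of all windows (5.87% and 8.07% at an unadjusted p below 0.05). With total count scaling, which moved the median of all bins to 1.23, 33 of the windows were higher than in clr6-1, against 22.2% of all windows. The 75 windows lower than in clr6-1 were 48 on the left arm and 27 on the right arm. All 27 had a near-identical copy, and edgeR called 0 of the 23 right-arm windows without one (1 at an unadjusted p below 0.05, against 49.5% of all windows). Distance differs too: of right-arm windows within 10kb 26 of 31 were lower, and from 10 to 20kb 1 of 30, all with a copy. The 23 without a copy lay beyond 20kb. In 20 of them every clr3-D232N library was below both clr6-1 libraries, as in 1046 of all 1500 windows. On the left arm, 10 of the 12 windows without a copy were lower in clr3-D232N than in clr6-1.

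Between clr3-D232N and Δprw1, edgeR called no window lower and none higher, against 3.33% and 7.0% of all windows. At an unadjusted p below 0.05, 10 were lower and 4 higher, against 28.4% and 10.1% of all windows, and DESeq2 called 1 lower, against 3.4% of all windows. With total count scaling 1 was lower and 11 were higher, against 6.67% and 12% of all windows. The median log2 difference was 0.09, and single windows ranged between -2.09 and 1.06. A difference that misses the threshold does not show that the genotypes are alike. Away from the ends both mutants lay near the median bin, where a difference between them could hardly show. The right-arm bin at 19.1kb held 0.932 times the median bin in Δprw1 and 0.922 in clr3-D232N, against 8.14 in wild-type. The left-arm bin at 20kb held 1.14 and 1.42 times, against 31.4. Without clr3-D232N replicate B, 63 windows were called lower than in Δfkh2.

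By gene, 81 windows lay over 31 protein-coding genes, 47 of them over 18 genes on the left arm and 34 over 13 genes on the right arm. The other windows overlapped non-coding RNA genes alone (27 and 20) or no gene (41 and 33). The genes were grouped by keywords in the RefSeq product. Of the 7 windows over genes for surface proteins, all on the left arm, 0 were reduced in Δfkh2, 7 in Δprw1 cells, 1 in clr6-1 and 4 in clr3-D232N. Of 30 windows over genes with a product word ending in -ase, 10, 24, 13 and 21 were reduced, and of 39 over other genes, which by this rule hold the malic enzyme SPAC750.08C and its 2 windows, 35, 37, 35 and 36. The 5 windows of SPAC750.02C, a transporter, were reduced in each mutant. Groups differ in their distance from the end, which was not taken into account.

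Values per gene are the mean normalized count over the gene's windows. The uncharacterized SPAC212.04C, with 5 windows at 21.6kb from the left end, had all 5 reduced in every mutant. It held 444 ± 206 in Δfkh2 (SD, n = 3), 126 ± 8.3 in Δprw1 (SD, n = 3), 239 ± 15.6 in clr6-1 (SD, n = 2) and 207 ± 7.3 in clr3-D232N (SD, n = 3), against 2265 ± 770.4 in wild-type (SD, n = 2). The same held for SPAC212.02, SPAC212.01C, SPAC977.18 and SPAC977.04, which are uncharacterized, for SPAC977.05C, which has a Vel1p domain, and for ftm1 and ftm2, which encode transmembrane helix proteins. Their wild-type means lay between 3424 ± 1383 at SPAC212.01C and 484 ± 157 at SPAC977.05C (SD, n = 2).

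Genes at either edge of the left arm differed by mutant. SPAC212.08C, a GPI anchored protein 12.2kb from the end, had its 2 windows reduced in Δprw1 and clr3-D232N and not in Δfkh2 or clr6-1, with median log2 fold changes of -1.73 in Δfkh2 cells, -5.21 in Δprw1 cells, -0.92 in clr6-1 and -5.02 in clr3-D232N. SPAC212.06C, a DNA helicase-like protein, had 1, 1, 1 and 3 of 3 windows reduced. At pfl6, a glycoprotein gene 42.1kb from the end, 0, 4, 1 and 1 of 4 windows were reduced, with 367 ± 102 normalized counts in wild-type (SD, n = 2). At plb4, a phospholipase gene, which breaks down membrane lipids, it was 0, 4, 0 and 0 of 5. Fold changes of these inner genes lay near the threshold of -1, between -1.09 and -0.58.

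On the right arm, pdc102, a pyruvate decarboxylase, the enzyme that turns pyruvate into acetaldehyde, is covered by 6 windows without a copy. It held 320 ± 108 in Δfkh2 (SD, n = 3), 142 ± 23.6 in Δprw1 (SD, n = 3), 197 ± 4.0 in clr6-1 (SD, n = 2) and 137 ± 7.5 in clr3-D232N (SD, n = 3), against 661 ± 212 in wild-type (SD, n = 2). All 6 windows were reduced in Δprw1, clr6-1 and clr3-D232N, and 4 in Δfkh2. SPAC186.08C, an L-lactate dehydrogenase, and SPAC186.07C, a hydroxyacid dehydrogenase, also have windows without copies. Their 3 and 2 windows were all reduced in Δprw1 and clr3-D232N and none in Δfkh2, and clr6-1 had 1 reduced at SPAC186.08C. SPAC750.01, an aldo/keto reductase, had all 3 windows reduced in each mutant.

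Nearer the right end, SPAC750.02C, SPAC750.03C (a methyltransferase), ftm3, ftm4 and SPAC750.06C had every window reduced in every mutant. SPAC750.08C, an NAD-dependent malic enzyme cut off by the end of the assembly, had neither of its 2 windows called in any mutant. It held 3274 ± 1709 in Δfkh2 (SD, n = 3), 2447 ± 1932 in Δprw1 (SD, n = 3), 16640 ± 1005 in clr6-1 (SD, n = 2) and 2248 ± 127 in clr3-D232N (SD, n = 3), against 7853 ± 3405 in wild-type (SD, n = 2). Its clr6-1 level was the highest of the genes of the right arm. At the other margin SPAC186.03, an L-asparaginase 42.7kb from the end, had 282 ± 84.7 in wild-type (SD, n = 2) and neither of its 2 windows called in any mutant.

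**Figure D5:**
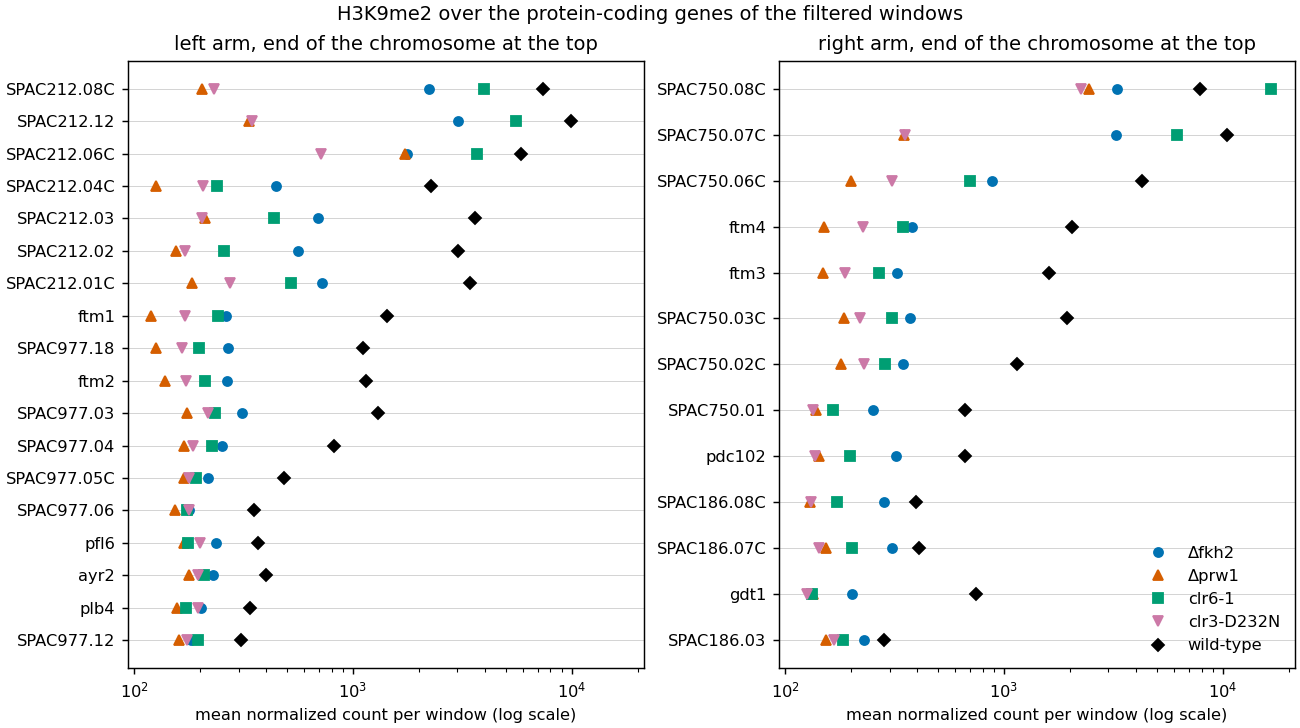
Mean normalized count per window (horizontal axis, log scale) of the 31 protein-coding genes under filtered windows, ordered from the chromosome end (top) inward, with a point per genotype. In 30 of the 31 genes wild-type was the highest genotype, the exception being SPAC750.08C at the right end, where clr6-1 was. A window could pass the filter because wild-type was high, so this count is a description. It was not set against genes elsewhere.

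The forkhead core motif GTAAACA, read on both strands, was present in 21 of the 202 windows (10.4%) and in 95 of the 1435 filtered windows of the 3 chromosomes (6.62%). Of the windows with the motif 13 of 21 were reduced in Δfkh2, and their median log2 fold change was -1.77, against 120 of 181 windows without it, with -1.98. Windows that are copies of each other repeat the same letters, and a match is not a binding site.

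The subtelomeres of chromosome II outside tlh2, which hold 188 filtered windows and most of the copies, gave values close to these. There 130, 160, 130 and 164 windows were reduced in the Δfkh2, Δprw1, clr6-1 and clr3-D232N strains, with medians of -2.19, -3.58, -2.50 and -3.38. Reads are shared between these places, and the difference between the chromosomes was not tested.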

How the data were processed

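Raw fragment counts in 300bp windows and 5kb bins were deposited by the authors for 13 H3K9me2 ChIP libraries in 5 genotypes, described in their methods as biological replicates. The 15 inputs were not analysed here. The counts hold no column for 2 further ChIP libraries, a clr6-1 and a wild-type one. The paper reports that a sample of each of these genotypes was removed as an outlier, after clustering and a check for poor signal over noise. The labels name Trimmomatic 0.39, Bowtie2 2.4.2, Picard 2.25.2 and SAMtools 1.12, and fragments were counted with csaw. The authors kept windows above 1.7 times background and masked the edited loci. For these genome-wide counts, a mapping quality filter is not given in the sources used here. Background was not subtracted, so fold changes of low windows understate loss.

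Median-of-ratios size factors came from the 5kb bins. edgeR 4.0.16 (R 4.3.3) was fitted to all windows with genotype as the only term, with p-values adjusted by Benjamini-Hochberg over all 1500 windows or 2520 bins, and calls needed an adjusted p below 0.005 with a log2 fold change beyond 1 in either direction. SE is the absolute log2 fold change divided by the square root of F. For bins, DESeq2 1.42.0 used a mean dispersion fit. Scripts were tested on simulated data. Copies were sought with BLAST 2.17.0. Genes and sequences are from RefSeq ASM294v3. The labels name ASM294v2, and the 3 chromosome lengths in the deposited counts equal those of ASM294v3. The bin over prw1, which the authors masked, held 0.289 to 0.346 times the median bin, at the RefSeq position. Distance is measured from the end of the assembly.

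Windows named are those with the lowest called log2 fold change in an arm and mutant, the highest wild-type mean and the innermost called window. Genes named are the 12 with most windows in each arm and those holding a named window. Members, lists and tests were chosen with earlier results of these data known. Alternatives were DESeq2's Wald test, TMM or total count factors, leaving out the lowest 25% of features, a replicate block, only the 2 genotypes compared, an adjusted p below 0.05, no fold threshold, medians for sums and each library left out.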

Additional observations from a re-analysis of the deposited data

How the results depend on the processing

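Scaling by the total count of 5kb bins, which does not hold the unenriched bins level, moved the median log2 fold change of all bins to 0.80 in Δfkh2, 0.69 in Δprw1 cells, -0.16 in clr6-1 and 1.06 in clr3-D232N, and to 1.23 for clr3-D232N against clr6-1. Of all windows called, 71.9%, 79.9%, 95.1% and 73.0% were then lower in these 4 mutants, in place of 99.6%, 99.9%, 98.9% and 98.7%, and 61.7% in place of 87.9% for clr3-D232N against clr6-1. Under it 40 right-arm windows were reduced in Δfkh2, and 7, 14 and 11 bins in Δfkh2, Δprw1 and clr3-D232N. The arm differences from wild-type became -1.05 (left) and -1.15 (right) in Δfkh2, -3.00 (right) in Δprw1, and -1.99 and -2.55 in clr3-D232N. In clr3-D232N 33 windows were then higher than in clr6-1 and 11 higher than in Δprw1, 1 lower. The window at 56401 in clr3-D232N changed sign to 0.01. With only the 2 genotypes compared, 6 left-arm windows, 2 right-arm windows and 2 bins were reduced in Δfkh2, and in clr3-D232N 3 windows were lower and 1 higher than in Δprw1. Without a fold threshold, 32, 38, 34 and 38 bins were lower in the Δfkh2, Δprw1, clr6-1 and clr3-D232N strains. At an adjusted p below 0.05, 2 windows were lower and 1 higher in clr3-D232N than in Δprw1, and 1 was lower by DESeq2. The median in place of the sum gave -4.21 (left) in Δprw1 cells, -3.12 and -2.65 in clr6-1, and -3.99 (left) in clr3-D232N. Except for the construction of these settings, the cause was not tested.

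With the replicate letter as a block, 76 left-arm and 65 right-arm windows were reduced in Δfkh2 and 1 window was lower in clr3-D232N than in Δprw1. Other counts stayed within 1.5 times. Whether the letters pair the libraries could not be decided. Over groups sharing 3 letters, 5 of 9 same-letter correlations of deviations exceeded 0.1, with a range of -0.72 to 0.66. Among the libraries analysed, replicate B placed the largest share of fragments in the filtered windows in Δfkh2, Δprw1, clr6-1 and wild-type, but not in clr3-D232N.

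With each library left out in turn, reduced left-arm windows ranged over 42 to 93 in Δfkh2, 84 to 109 in Δprw1, 48 to 74 in clr6-1 and 87 to 101 in clr3-D232N, and right-arm windows over 28 to 76, 78 to 85, 39 to 70 and 79 to 85. Bins ranged over 2 to 23, 17 to 29, 10 to 26 and 17 to 30. The left-arm differences ranged over -2.28 to -1.46, -3.17 to -2.32, -0.71 to 0.09 (a reversal, without wild-type replicate B) and -3.49 to -2.68, and the right-arm ones over -2.37 to -1.56, -4.06 to -3.26, -1.26 to -0.46 and -4.04 to -3.24. Windows lower in clr3-D232N ranged over 63 to 119 against Δfkh2, 0 to 1 against Δprw1 and 58 to 87 against clr6-1, and those higher than in Δprw1 over 0 to 1. Where 1 wild-type or clr6-1 library was left, it was taken to vary like the other groups. TMM factors and leaving out the lowest 25% left every count within 1.5 times.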
